A study of Cricetiscus sungorus with 24 samples.

Results

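Heat shock proteins and chaperones were examined in the kidney of the Siberian hamster (Phodopus sungorus), a seasonal rodent, in nanopore cDNA counts from a pair of experiments. The members were all genes whose mouse symbol begins with Hspa, Hspb, Hspd, Hspe or Hsph and a number, with Hsp90, or with Dnaja, Dnajb or Dnajc, together with Cct2 to Cct8, Tcp1, Ahsa1, Ahsa2 and Bag1 to Bag6. In experiment 1, 73 of 9681 listed genes were members, and in experiment 2, 82 of 15842. All 73 were listed in both experiments, and the 9 listed in experiment 2 alone were Dnajb4, Dnajb13, Dnajc18, Dnajc28, Dnajc30, Hspa1a, Hspa13, Hspb6 and Hspb7.

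Experiment 1 held adult males that had been housed in long photoperiod. The LP group (n = 4) stayed at 16 h of light per day, and the SP12wk and SP28wk groups (n = 4 each) were moved to a short photoperiod of 8 h of light for 12 and 28 weeks. Experiment 2 held adult females, all kept in short photoperiod for 8 weeks and injected daily for 3 days. The SAL group (n = 6) received vehicle, DMSO in saline, and the PRL group (n = 6) received 18 µg of ovine prolactin per day. No altered genotype is given for any group, each library came from the kidney of 1 animal, and the 12 libraries of each experiment shared 1 flow cell. The experiments differed in sex, flow cell and depth, so their levels were set side by side and not tested against each other. In a whole kidney, fewer cells of a type and less RNA per cell cannot be told apart.

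Chaperones bind unfolded or partly folded proteins and keep them from aggregating. HSP70 proteins hold short exposed stretches under the control of J proteins, which deliver clients and trigger ATP hydrolysis, while HSP90 completes the folding of many kinases and steroid receptors and the CCT ring encloses actin and tubulin. Separate sets serve the cytosol, the mitochondrial matrix and the endoplasmic reticulum (ER), and in the kidney the reabsorbing tubule is rich in mitochondria. Some members are made in all conditions and others mainly after the heat shock factor HSF1 or an ER stress sensor is activated.

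Values are given as counts of reads, or as CPM, the count of the transcript with most reads divided by the library total and scaled to a total of 1000000. Library totals were 15688 to 57585 in experiment 1 and 174053 to 756523 in experiment 2, so that a single read was worth 17.4 to 63.7 CPM in the males and 1.32 to 5.75 CPM in the females. A gene without a read could still have a level of up to 52.1 to 191 CPM in a male library and 3.97 to 17.2 CPM in a female library, at a limit of 3 counts that covers counting error only. Transcript lengths were not used here, so orders between genes are orders of read counts. Of 10 proximal tubule markers, 9 were detected in both experiments, with a mean summed level of 5906 CPM in LP, 8606 in SP12wk, 8104 in SP28wk, 7054 in SAL and 7560 in PRL, and Cubn was at 0 in every group. Of 5 collecting duct markers only 2 were listed in the males, and 5 were at 0 in LP, 4 in SP12wk and 3 in SP28wk. LP replicate 2 stood apart, with a median Spearman correlation with the other male libraries of 0.527 (0.775 to 0.876 for the others) and 7.38% of its counts on 84 ribosomal protein genes (11.9% to 18.3% in the others). Its proximal tubule markers summed to 2300 CPM, the lowest of the male libraries, against 4606 to 9690 CPM in the other LP libraries. For groups and genes in which this library was the highest or lowest of LP, means without it are given where it moved them most.

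A handful of chaperones took most of the reads. The members together made up 0.771% to 1.33% of a male library and 0.718% to 0.869% of a female library. The 3 members with most reads held 52.3% of 3120 member counts in the males and 52.4% of 35908 in the females, and the first 10 held 77.5% and 75.5%. At the other end, 37 of 73 members had fewer than 10 counts over the 12 male libraries, against 10 of 82 in the females. A count in at least 4 of 12 male or 6 of 12 female libraries was required for a test, which left 46 of 73 and 73 of 82 members.

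By compartment, the cytosolic members held most reads in the males, and in the females cytosolic and mitochondrial members held similar shares. Of the member counts in experiment 1, 51.1% belonged to 49 cytosolic, 32.1% to 8 mitochondrial and 15.6% to 11 ER genes. In experiment 2 the shares were 42.2% for 53 cytosolic, 45.6% for 10 mitochondrial and 10.8% for 13 ER genes. Genes of another or uncertain place, such as Hspb11, held 1.15% and 1.41%. These shares also depend on how a gene is counted, because adding all listed transcripts of a gene lowered the summed level of the mitochondrial members in SAL from 3821 to 2454 CPM and in LP from 2935 to 1592 CPM. The order of the 2 largest groups turned with it in SAL, where the cytosolic members then had 3212 CPM, while in PRL the cytosolic members were ahead both with 1 transcript per gene (3517 against 3488 CPM) and with all transcripts (3574 against 2278 CPM).

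Summed over genes, cytosolic chaperones had 6379 ± 2163 CPM in LP, 5212 ± 719 in SP12wk and 4233 ± 618 in SP28wk (mean ± SD, n = 4 each). The LP libraries spread from 3418 to 8469 CPM and covered both other groups, and without LP replicate 2 the LP mean was 5682 ± 2026 CPM (n = 3). Mitochondrial chaperones had 2935 ± 702 CPM in LP, 3390 ± 653 in SP12wk and 2889 ± 412 in SP28wk. LP replicate 2 had the highest cytosolic and ER sums of all male libraries and the lowest mitochondrial sum, at 8469, 2804 and 1907 CPM, and without it the LP means were 3277 ± 188 CPM for the mitochondrial and 1550 ± 825 CPM for the ER members (n = 3). ER chaperones had 1864 ± 920, 1701 ± 336 and 1282 ± 307 CPM in the 3 groups, which overlapped. In the females, cytosolic chaperones had 3174 ± 307 CPM in SAL and 3517 ± 399 in PRL, mitochondrial chaperones 3821 ± 332 and 3488 ± 447 CPM, and ER chaperones 905 ± 216 and 914 ± 154 CPM (n = 6 each). SAL replicate 6 had the highest ER sum of all female libraries, 1277 CPM, and the lowest mitochondrial sum of SAL, 3153 CPM. Without it the SAL means were 830 CPM for the ER and 3955 CPM for the mitochondrial members. In each compartment the SAL and PRL libraries overlapped.

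**Figure D1:**
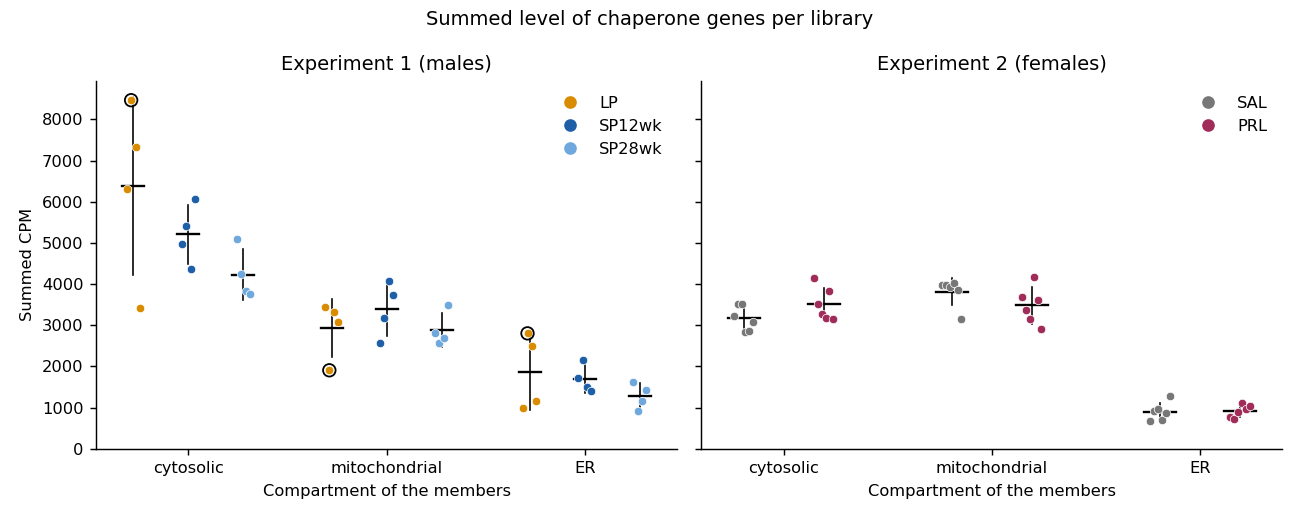
Summed CPM of cytosolic, mitochondrial and ER members per library (y axis) in the males (left; LP, SP12wk, SP28wk, n = 4 each) and females (right; SAL, PRL, n = 6 each); points are libraries, horizontal bars means, vertical lines 1 SD, and the ringed point is LP replicate 2. The LP libraries spread from 3418 to 8469 CPM in the cytosolic sum, and the SAL and PRL libraries overlapped in all 3 compartments.

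Hspa8, the HSP70 protein that cells make at all times, was the member with most reads in the males and the second in the females. Its level was 4045, 4094, 3551 and 1321 CPM in the LP libraries, 2371, 2996, 2259 and 3589 CPM in SP12wk, and 2885, 2116, 1314 and 1285 in SP28wk. A single LP library lay as low as the lowest SP28wk libraries, so the groups overlapped. In the females Hspa8 ran from 1162 to 1410 CPM in SAL (median 1243) and from 1044 to 1893 in PRL (median 1342), with every SAL value inside the range of PRL.

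Hspe1, the small lid of the mitochondrial chaperonin, had most reads in the females. In the males it stood at 2352, 505, 1720 and 1631 CPM in LP, at 1880, 2040, 2711 and 2572 in SP12wk, and at 1423, 1660, 1628 and 1858 in SP28wk. Every SP12wk library lay above every SP28wk library, while the lowest LP value, 505 CPM, belonged to the library that stood apart, and without it LP had 1901 ± 393 CPM (n = 3). With TMM-scaled CPM, which corrects for the composition of a library, SP12wk (1721 to 2773) and SP28wk (1413 to 2328) overlapped for Hspe1. In the females Hspe1 had 1524 to 2100 CPM in SAL (median 1899) and 1360 to 2017 in PRL (median 1674).

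Hspd1, which forms the barrel that Hspe1 closes, showed the widest spread in LP. The LP libraries had 188, 1178, 777 and 350 CPM, against 286, 191, 201 and 283 CPM in SP12wk and 237, 207, 200 and 382 in SP28wk. The highest value was again LP replicate 2, and the 3 other LP libraries averaged 438 ± 304 CPM. In the females Hspd1 stayed within 206 to 305 CPM in all 12 libraries, with medians of 240 in SAL and 251 in PRL. Hspa9, the HSP70 of the mitochondrial matrix, had 18 counts in SP28wk, 3 in SP12wk and 4 in LP, and in the females 52.0 to 100 CPM in SAL and 55.4 to 119 in PRL.

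Dnajc19 and Dnajc15 encode J proteins of the inner mitochondrial membrane that act on the motor pulling precursor proteins into the matrix. Dnajc19 stood at 659, 0, 444 and 621 CPM in LP, 204, 829, 803 and 565 in SP12wk, and 830, 581, 371 and 781 in SP28wk. The 0 was LP replicate 2, where a limit of 3 counts corresponds to 168 CPM, and the 3 other LP libraries averaged 575 ± 115 CPM. In the females Dnajc19 had 964 to 1301 CPM in SAL (median 1063) and 732 to 1347 in PRL (median 942), and Dnajc15 had 272 to 493 in SAL (median 415) and 193 to 437 in PRL (median 310).

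In the ER, Hspa5 (BiP) is the resident HSP70 and Hsp90b1 (GRP94) the resident HSP90. Hspa5 had 470, 1626, 943 and 777 CPM in LP, 858, 1466, 904 and 650 in SP12wk, and 870, 415, 628 and 729 in SP28wk. The groups overlapped, and LP replicate 2 held the highest value, without which LP averaged 730.2 ± 240 CPM (n = 3). Hsp90b1 had 512 ± 304 CPM in LP, 480 ± 111 in SP12wk and 429 ± 107 in SP28wk (n = 4 each). In the females Hspa5 ran from 301 to 810 CPM in SAL (median 471) and from 319 to 655 in PRL (median 442), and Hsp90b1 from 162 to 227 in SAL and from 161 to 317 in PRL. The vehicle and prolactin groups overlapped for both.

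The cytosolic HSP90 pair showed no separation between the photoperiod groups. Hsp90aa1, the stress-responsive form, had 400 ± 216 CPM in LP, 274 ± 98.7 in SP12wk and 348 ± 58.5 in SP28wk. Without LP replicate 2, LP averaged 347 ± 229 CPM for Hsp90aa1 (n = 3). Hsp90ab1, the form made at all times, had 260 ± 62.7, 308 ± 109 and 188 ± 93.4 CPM. LP replicate 2 was the lowest LP library for Hsp90ab1, at 168 CPM, and without it LP averaged 290 ± 18.0 CPM (n = 3). In the females Hsp90ab1 had 91.8 to 228 CPM in SAL (median 170) and 138 to 284 in PRL (median 201), and Hsp90aa1 had 86.5 to 151 in SAL and 89.9 to 173 in PRL. Ahsa1 and Ahsa2, which speed up the ATPase of HSP90, were lower. Ahsa1 had 37.6 to 73.1 CPM in SAL and 50.2 to 90.9 in PRL, and Ahsa2 had 15.6 to 33.7 CPM and 18.4 to 31.6 CPM.

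Dnaja1 and Dnaja2, J proteins of the cytosol that work with Hspa8, were among the 20 members with most reads in both experiments. Dnaja1 had 188, 673, 277 and 194 CPM in LP, 286, 446, 351 and 198 in SP12wk, and 277, 166, 457 and 139 in SP28wk. Dnaja2 had 94.1, 729, 222 and 77.7 CPM in LP, 163, 0, 50.2 and 169.6 in SP12wk, and 158, 83.0, 57.1 and 295 in SP28wk. For both genes the groups overlapped and the highest male value was that of LP replicate 2, without which LP averaged 220.0 ± 49.9 CPM for Dnaja1 and 131 ± 79.0 CPM for Dnaja2 (n = 3). In the females Dnaja1 ran from 168 to 329 CPM in SAL (median 257) and from 214 to 408 in PRL (median 276), and Dnaja2 from 91.0 to 144 in SAL (median 103) and from 75.1 to 113 in PRL (median 88.0). Hspa4, an HSP110 protein that exchanges the nucleotide of HSP70, had 142 ± 135 CPM in LP, 213 ± 98.9 in SP12wk and 121 ± 28.9 in SP28wk, and 53.6 ± 15.6 in SAL against 56.8 ± 7.67 in PRL. Of the 6 BAG genes, whose proteins release clients from HSP70, Bag6 had most counts in the males, at 21, and Bag1 in the females, at 188. With all listed transcripts added, Bag6, which has 51, had 941 counts in the males and 5558 in the females, against 32 and 376 for Bag1, so the level of Bag6 rested on how a gene is counted. Bag1 had 27.4 to 61.2 CPM in SAL and 29.1 to 74.7 in PRL, and Bag6 18.4 to 32.4 in SAL and 21.8 to 51.7 in PRL. Dnajc8, a J protein found in the nucleus and counted here with the cytosolic members, rested on 6 counts in the males and had 58.3 to 164 CPM in SAL (median 91.6) and 73.7 to 161 in PRL (median 123). In none of these genes did vehicle and prolactin libraries separate.

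**Figure D2:**
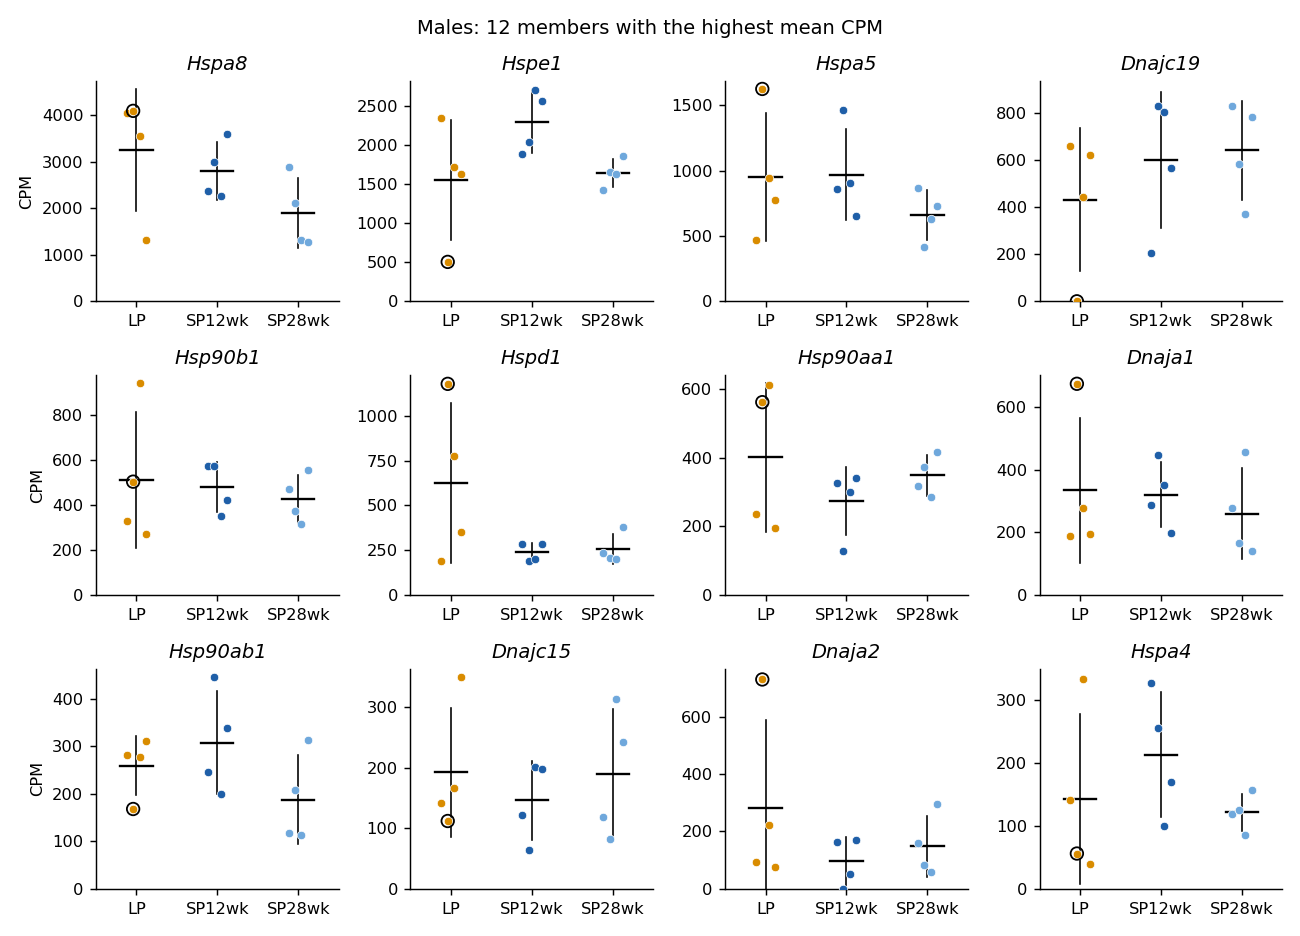
CPM per library (y axis) of the 12 members with the highest mean CPM in the males, by group (LP, SP12wk, SP28wk, n = 4 each); points are libraries, horizontal bars means, vertical lines 1 SD, and the ringed point is LP replicate 2. LP replicate 2 was the highest LP library for Hspd1 (1178 CPM), Hspa5 (1626 CPM) and Dnaja2 (729 CPM) and the lowest for Hspe1 (505 CPM) and Dnajc19 (0 CPM).

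**Figure D3:**
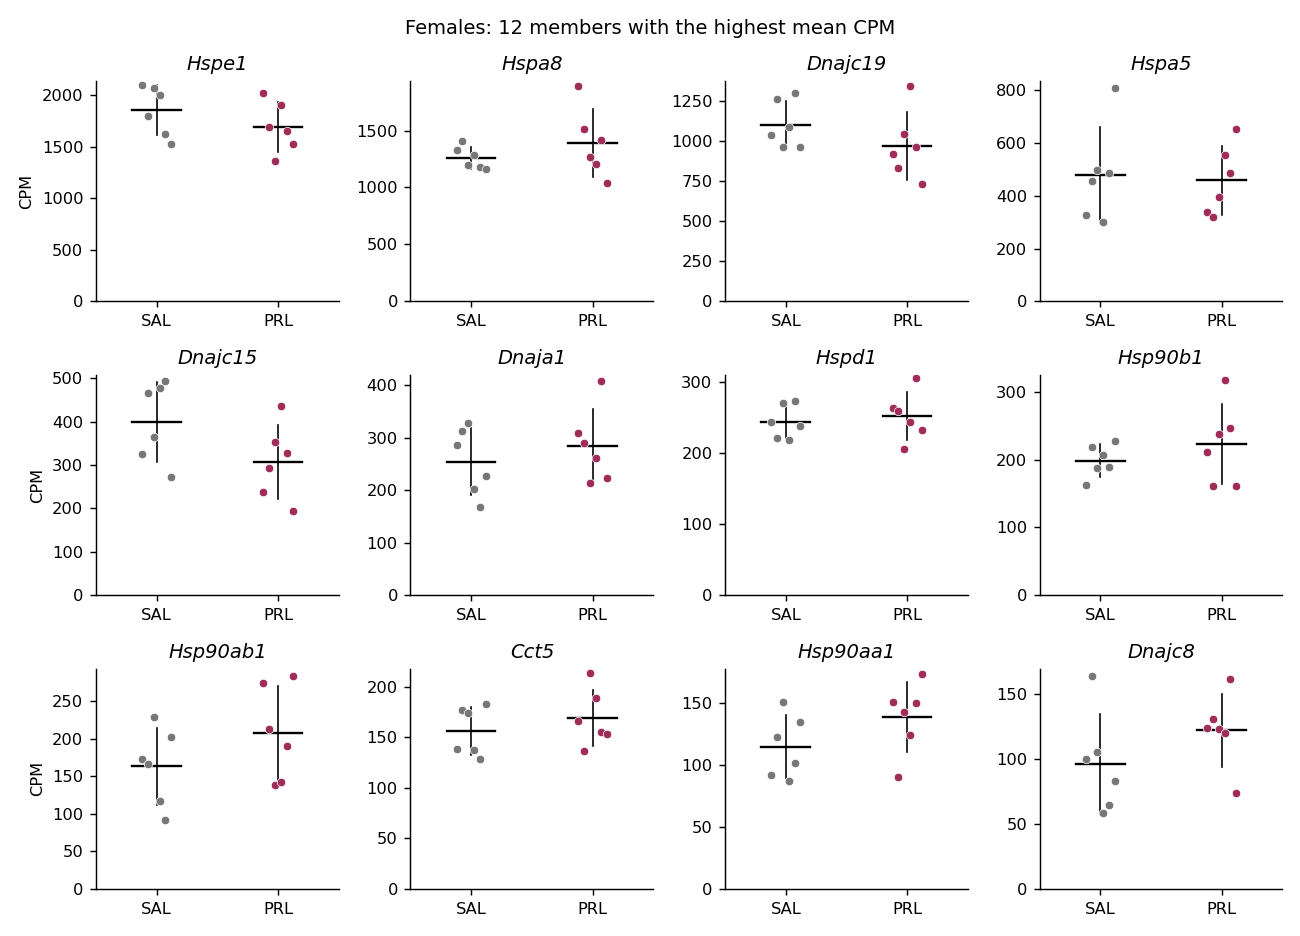
CPM per library (y axis) of the 12 members with the highest mean CPM in the females, by group (SAL, PRL, n = 6 each); points are libraries, horizontal bars means and vertical lines 1 SD. The SAL and PRL libraries overlapped for each of the 12 genes, for example from 272 to 493 CPM in SAL and from 193 to 437 in PRL for Dnajc15.

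The heat-inducible genes Hspa1a, Hspa1b, Hspb1, Bag3, Hsph1 and Dnajb1, which mark an HSF1 response, had few reads. By the transcript with most reads, none had more than 120 counts over the 12 libraries of an experiment. Hspa1a and Hspa1b, near-identical genes for the inducible HSP70 between which reads cannot be assigned with certainty, had 15 and 22 counts in all 12 female libraries, where Hspa8 had 6202. In the males Hspa1b had 1 count and Hspa1a was not listed. Among the other targets of HSF1, Hspb1 had 63 counts in the females and 5 in the males, Bag3 45 and 4, Hsph1 120 and 4, and Dnajb1 77 and 10. With all transcripts added, Hsph1 had 467 counts in the females and 7 in the males, and Dnajb1 132 and 20. In single female libraries Hspa1b had 0 to 6.40 CPM in SAL and 0 to 17.0 in PRL, and Dnajb1, the J protein partner of inducible HSP70, had 4.57 to 21.6 in SAL and 11.9 to 32.2 in PRL. Hspb1, Hsph1 and Dnajb1 were each detected in 12 of 12 female libraries. Ranges of SAL and PRL overlapped for each of these genes.

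The sum over the HSF1 targets came mostly from Hspe1, Hspd1, Hsp90aa1 and Dnaja1, which are also made without stress. It had 3062 ± 365 CPM in LP, 3346 ± 368 in SP12wk and 2596 ± 231 in SP28wk, and 2583 ± 285 in SAL against 2518 ± 270 in PRL. The lowest SP12wk library, at 2932 CPM, lay above the highest SP28wk library, at 2883 CPM, but with TMM-scaled CPM the groups overlapped, at 2474 to 3870 in SP12wk and 2394 to 3612 in SP28wk. Targets of the ER stress sensors summed to 1653 ± 815 CPM in LP (1382 ± 744 CPM without LP replicate 2), 1606 ± 357 in SP12wk and 1231 ± 302 in SP28wk, and to 825 ± 215 in SAL and 823 ± 161 in PRL. Of these, Dnajb9, a J protein of the ER lumen that depends on such sensors, had 21.6 to 50.8 CPM in SAL and 17.2 to 51.4 in PRL.

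The CCT ring, which folds actin and tubulin, was the cytosolic complex with most subunits measured. Its 9 listed genes, with Tcp1 and the variant Cct6b, summed to 889 ± 331 CPM in LP, 490 ± 110 in SP12wk and 576 ± 86.1 in SP28wk, and to 576 ± 82.2 in SAL and 646 ± 45.8 in PRL. LP ran from 612 to 1332 CPM, SP12wk from 409 to 653 CPM and SP28wk from 474 to 664 CPM. The LP libraries thus reached above both short photoperiod groups but overlapped them, and without LP replicate 2 the LP mean was 868 ± 402 CPM. Single subunits behaved unlike one another. Cct3 had 188, 280, 222 and 194 CPM in LP, 163, 127, 100 and 141 in SP12wk and 79.0, 83.0, 114 and 139 in SP28wk. Every LP library was above every short photoperiod library for Cct3, on 18, 13 and 16 counts. Cct7 had 1 count in LP, 4 in SP12wk and 9 in SP28wk. Tcp1, the alpha subunit, had 141, 168, 222 and 77.7 CPM in LP, 0, 0, 100 and 28.3 in SP12wk and 39.5, 0, 57.1 and 69.5 in SP28wk, so that the LP libraries lay above those of SP28wk and overlapped those of SP12wk. In the females Cct3 had 47.0 to 96.0 CPM in SAL and 78.2 to 97.8 in PRL, Tcp1 56.4 to 93.6 and 59.3 to 103 CPM, and Cct8 80.0 to 128 and 59.8 to 92.1 CPM. Vehicle and prolactin libraries overlapped for each of these 3 subunits.

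No member passed an adjusted p of 0.05 in any comparison (edgeR quasi-likelihood test, Benjamini-Hochberg over all genes tested). In the males 46 members and 5086 genes were tested, and the share of all genes that passed was 0.0197% (1 gene) for SP12wk against LP, 0.138% (7 genes) for SP28wk against SP12wk and 0.216% (11 genes) for SP28wk against LP. LP with SP28wk against SP12wk gave 0.0393% and the F test over the 3 groups 0.275%. In the females 73 members and 10696 genes were tested, and 0% passed for PRL against SAL. At an unadjusted p under 0.05, edgeR gave 2 members for SP12wk against LP, 3 for SP28wk against SP12wk, 2 for SP28wk against LP, 2 for LP with SP28wk against SP12wk, 1 for the F test and 2 for PRL against SAL. The shares of all genes at that level were 7.26%, 6.1%, 8.57%, 6.78%, 7.47% and 4.88%, against 4.35%, 6.52%, 4.35% and 4.35% of the members for the first 4, 1 of 46 for the F test and 2.74% for the last. DESeq2 also gave 0 members at an adjusted p under 0.05 in each comparison, and 1, 0, 0, 1, 0 and 2 members at an unadjusted p under 0.05. The smallest adjusted p of a member was 0.538 in the males and 0.658 in the females. SP12wk and SP28wk were compared with the same LP libraries, so those results are not independent.

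Cct5, the epsilon subunit of the CCT ring, was the member named most often by the unadjusted test. It had 188, 280, 277 and 117 CPM in LP, 40.9, 0, 0 and 113 in SP12wk, and 79.0, 249, 171 and 104 in SP28wk. All LP libraries lay above all SP12wk libraries, by a margin of less than 1 read, and SP28wk overlapped both. The log2 fold change was −1.73 (SE 0.79, edgeR adjusted p = 0.603) for SP12wk against LP, on 5 and 17 counts. For LP with SP28wk against SP12wk it was 1.66 (SE 0.71, edgeR adjusted p = 0.667). SP12wk replicate 4 held 4 of the 5 SP12wk counts, and without it both values lay further from 0, at −3.18 and 3.10. In the females, with 707 counts of Cct5, PRL and SAL were 168.7 ± 27.9 and 156 ± 24.0 CPM (log2 fold change 0.04, 95% interval −0.37 to 0.46).

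Dnajc5, a J protein of secretory vesicles, had 94.1, 168, 55.5 and 117 CPM in LP, 40.9, 0, 50.2 and 0 in SP12wk, and 119, 83.0, 114 and 86.8 in SP28wk. The SP12wk libraries lay below all libraries of both other groups, on 2 counts against 9 and 14. These values are those of 1 of 10 listed transcripts, which carries the RefSeq prefix of a non-coding RNA. That transcript had 25 counts in the males, against 241 with all transcripts of Dnajc5 added. With all transcripts added, the SP12wk libraries still lay below those of LP and of SP28wk. Its log2 fold change for LP with SP28wk against SP12wk was 2.05 (edgeR adjusted p = 0.688), and for SP28wk against SP12wk it was 2.16 (adjusted p = 0.738). Hspa9 stood at 198, 0, 143 and 139 CPM in SP28wk and at 0, 0, 50.2 and 56.5 in SP12wk, with a log2 fold change of 2.01 (edgeR adjusted p = 0.735). One SP28wk library without a read kept the groups overlapping. A further 3 members were named only through groups without a read, and each had at most 5 counts in a group. Dnajc6, an auxilin that works with Hspa8 on clathrin coats, had 4 counts in SP12wk and 0 in LP. Hspb11, an intraflagellar transport protein despite its name, had 5 counts in SP28wk, and Dnajc4 had 4, with 0 in LP for both. Set against a limit of 3 counts over the LP group, the ratios were 1.16 for Dnajc6, 0.97 for Hspb11 and 0.78 for Dnajc4. These ratios take the counts above 0 as exact and leave out spread between animals, so they are not lower bounds.

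Groups that did not overlap in CPM were found for 6.52% of the tested members (3 of 46: Cct3, Cct5 and Dnajc5) as lower values in SP12wk than in LP, where 1.55% of all genes did so, and for 0% as higher values (1.12% of all genes). Without LP replicate 2 the same 3 members were lower and Ahsa1 was higher. For Ahsa1 the 3 remaining LP libraries had 0 to 47.0 CPM, the latter being 1 read in LP replicate 1, and LP replicate 2 had 168 CPM. For SP28wk against SP12wk, Dnajc5 was higher (1.85% of all genes) and Hspe1 lower (1.53%), and for SP28wk against LP, Cct3 and Tcp1 were lower (1.73%) and no member was higher (1.57%). With TMM-scaled CPM, which divided LP replicate 2 by 1.41, Cct3 alone remained lower in SP12wk than in LP, Dnajc5 remained higher in SP28wk than in SP12wk, Hspe1 was no longer lower there, and no member was left for SP28wk against LP. For PRL against SAL no member was separated (0.112% of all genes were higher and 0.028% lower). This count was added after the data had been seen.

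In depth the experiments differed greatly, and with it the size of change that could be seen. For SP12wk against LP the median half-width of a 95% interval was 2.09 on the log2 scale. Of 46 members, 1 had an interval inside a 2-fold change in either direction and 12 inside a 4-fold change. The male tests had 45774 degrees of freedom, against 39.9 in the females. Tests, standard errors and intervals in the males thus rested on a spread pooled over genes, not on that of the single gene. For PRL against SAL the median half-width was 0.66, and 42 of 73 members had intervals inside a 2-fold change and 66 inside a 4-fold change. The median log2 fold change over the members was −0.0038 for SP12wk against LP, 0.16 for SP28wk against SP12wk, 0.13 for SP28wk against LP and 0.04 for PRL against SAL. Over all genes tested it was −0.0013, 0.16, 0.18 and 0.03. Size factors of DESeq2 in place of TMM moved the medians for the SP28wk comparisons of all genes to 0.0038 and −0.03 and those of the members to −0.0024 and −0.09, so that the direction of the members' median against LP rested on the scaling.

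The 9 members with most reads in the females had intervals for PRL against SAL that held 0, apart from Dnajc15. For Hspa8 the log2 fold change was 0.08 (95% interval −0.29 to 0.44), for Hspd1 −0.02 (−0.40 to 0.37), for Dnaja1 0.09 (−0.32 to 0.51) and for Hsp90b1 0.06 (−0.35 to 0.47). For Hspe1 it was −0.20 (−0.54 to 0.15), for Dnajc19 −0.26 (−0.62 to 0.10), for Hspa5 −0.14 (−0.59 to 0.32) and for Hsp90ab1 0.33 (−0.14 to 0.81). For each of these 8 genes a 2-fold change in either direction was outside the interval. Dnajc15 had the lowest unadjusted p of the 43 members with 100 or more counts. Its single libraries had 324, 466, 365, 478, 493 and 272 CPM in SAL and 238, 293, 352, 437, 327 and 193 in PRL, and the ranges overlapped. The log2 fold change was −0.48 (SE 0.21, edgeR adjusted p = 0.946), on 879 counts in SAL and 673 in PRL. Hspb8, a small heat shock protein that acts with Bag3, had 20 counts in PRL and 4 in SAL. It was detected in 6 of 6 PRL libraries, at 3.95 to 17.0 CPM, and in 2 of 6 SAL libraries, at 5.20 and 6.12 CPM. Hspb8 thus met the filter for a test only through the PRL group, where it was higher. At a limit of 3 counts, a SAL library without a read could still have a level of up to 5.64 to 13.7 CPM. The log2 fold change of Hspb8 was 1.98 (SE 0.73, edgeR adjusted p = 0.658).

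**Figure D4:**
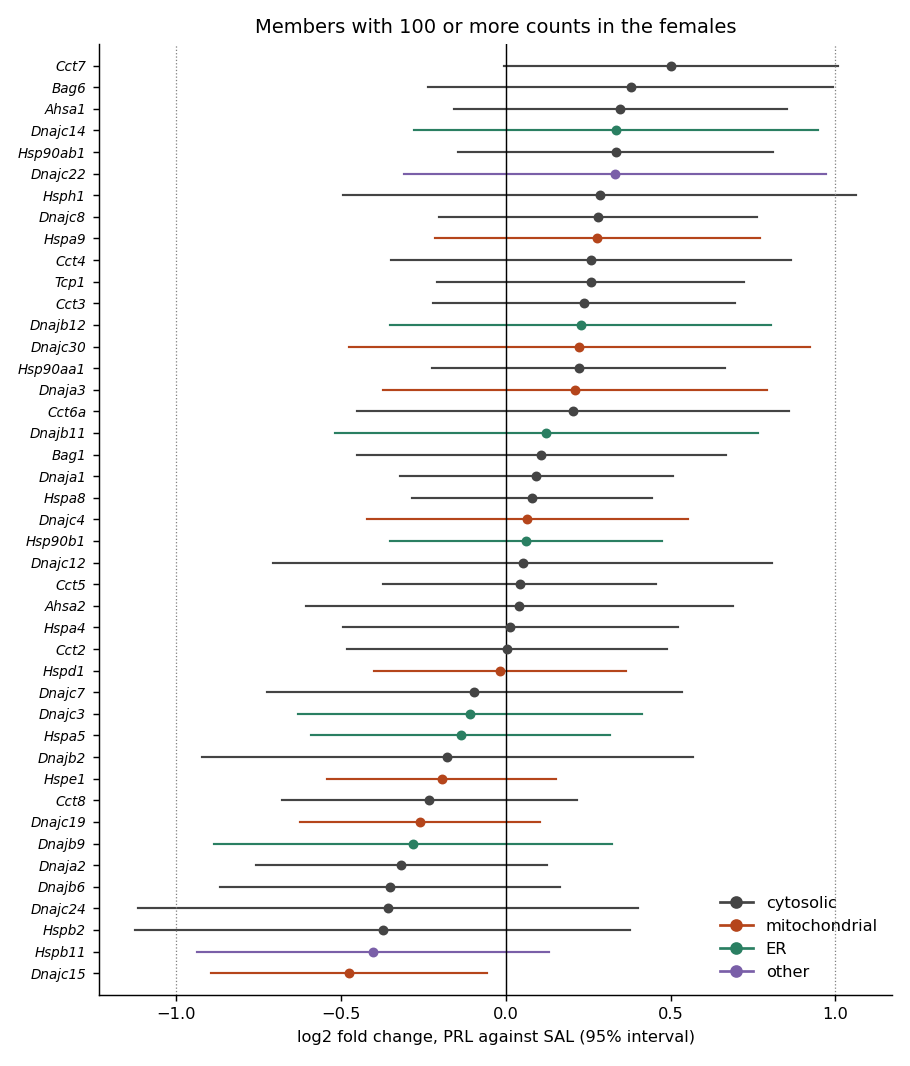
Log2 fold change for PRL against SAL (x axis) with 95% intervals from edgeR for the 43 members with 100 or more counts in the females, coloured by compartment; dotted lines mark 2-fold changes. Intervals of 42 of the 43 genes included 0, and that of Dnajc15 ran from −0.90 to −0.06 before adjustment.

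By family, fitted log2 fold changes for PRL against SAL were above 0 for 7 of 8 CCT subunits (6 of 8 with DESeq2 size factors and 5 of 8 with all transcripts added), with a median of 0.22, and for all 3 HSP90 genes, with a median of 0.22, while 5622 of all 10696 genes were above 0. Of 35 J proteins 14 were above 0 and 21 below, with a median of −0.13, and of 12 HSP70 genes 7 were above and 5 below. The CCT subunit furthest from 0 was Cct7, which had 39.5 to 91.3 CPM in SAL (median 49.4) and 68.1 to 138 in PRL (median 81.7), with a log2 fold change of 0.50 (SE 0.25, edgeR adjusted p = 0.999). Cct8 alone was below 0, at −0.23. None of these genes passed the test. In the males the CCT subunits had no common sign for SP12wk against LP, with 4 of 8 above and 4 below 0, and with DESeq2 size factors 1 was above and 7 below.

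Partner genes of the chaperones, 50 cochaperones, prefoldin subunits, ER folding enzymes, mitochondrial and stress-response genes, gave 32 tested genes in the males and 49 in the females, and 0 passed the adjusted test in any comparison. Calr (calreticulin, which folds glycoproteins in the ER) had 1176, 1234, 999 and 660 CPM in LP, 490, 382, 904 and 622 in SP12wk and 356, 373, 143 and 573 in SP28wk. All LP libraries lay above all SP28wk libraries in CPM, as for 1.73% of all genes, and the log2 fold change was −1.05 (SE 0.48, edgeR adjusted p = 0.538). TMM scaling divided LP replicate 4, at 660 CPM, by 0.983 and SP28wk replicate 4, at 573 CPM, by 0.77. With it the groups overlapped for Calr. Pfdn5, a prefoldin subunit that hands actin and tubulin to the CCT ring, had 282, 0, 111 and 272 CPM in LP and 356, 332, 543 and 365 in SP28wk. For Pfdn5 these groups did not overlap in CPM either (1.57% of all genes were higher in this way), with a log2 fold change of 1.46 (SE 0.56, edgeR adjusted p = 0.437). The 0 was LP replicate 2. Pfdn6, another prefoldin subunit, had 9 counts in SP12wk and 6 in SP28wk but 0 in LP, and Trap1, the HSP90 of mitochondria, had 4 in LP and 5 in SP12wk but 0 in SP28wk. In the females, at 142 to 147 counts of Pfdn6 and 83 to 95 of Trap1 per group, both were detected in 6 of 6 SAL and 6 of 6 PRL libraries. Of the partner genes in the females, the 2 with the lowest unadjusted p in each direction had log2 fold changes of 1.46 for Hspbp1, which releases nucleotide from HSP70, 0.65 for Serpinh1, the collagen chaperone, −0.57 for Ptges3, the p23 cochaperone of HSP90, and −0.95 for Hsf2, a heat shock factor, with edgeR adjusted p values of 0.909 to 0.996.

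Among the 12 females, the 2 inner-membrane J proteins rose and fell together from animal to animal. Across the 20 members with most reads, 190 pairs were compared on log2(CPM + 2.95) by 2-sided permutation tests with 100000 resamples, a comparison added after the data had been seen. Dnajc15 and Dnajc19 had r = 0.885 (permutation p = 1.4e-04, adjusted 0.0266) and rho = 0.825 (permutation p = 0.00144, adjusted 0.0912). Within SAL r was 0.805 and within PRL 0.906 (n = 6 each), and leaving out the 2 animals with the most extreme Dnajc19 values gave r of 0.83. Dnajc15 and Hsp90ab1 ran against each other, with r = −0.857 (permutation p = 3.6e-04, adjusted 0.0342) and rho = −0.839 (permutation p = 0.00102, adjusted 0.0912). Within SAL r was −0.737 and within PRL −0.934, and leaving out the 2 animals with the most extreme Dnajc15 values gave r of −0.787. Dnajc19 and Hsp90ab1 had r = −0.793 (adjusted permutation p = 0.105) and rho = −0.895 (adjusted permutation p = 0.038). Of the 190 pairs, 2 passed by r, 1 by rho and 0 by both, and the median r was 0.09.

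**Figure D5:**
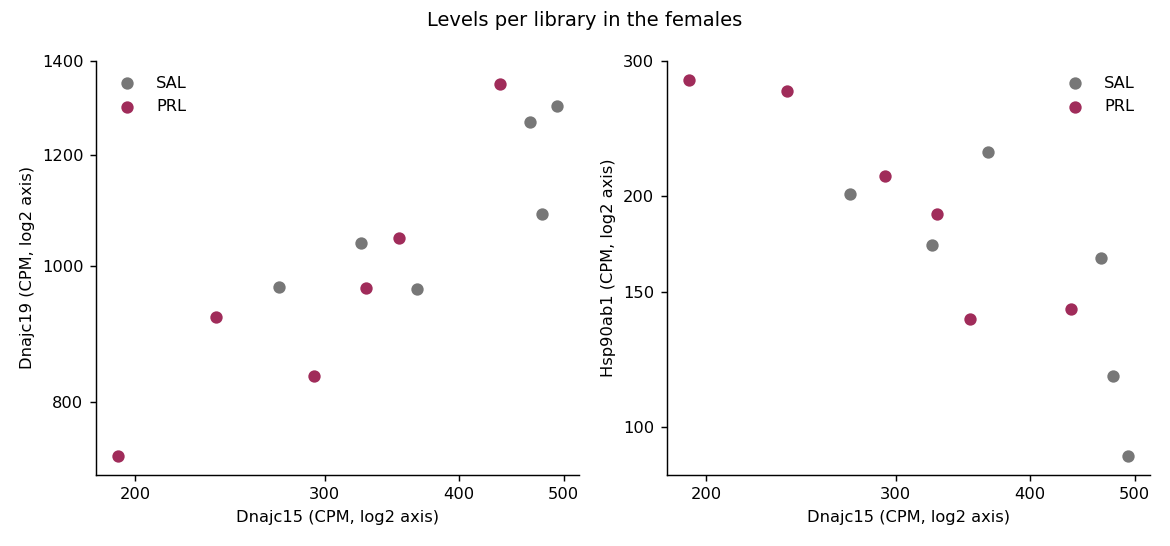
CPM of Dnajc19 (left) and Hsp90ab1 (right) against CPM of Dnajc15 in the 12 females, on log2 axes; points are libraries, coloured by group (SAL, PRL, n = 6 each). Dnajc19 was higher (r = 0.885) and Hsp90ab1 lower (r = −0.857) in libraries with more Dnajc15, within both groups.

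The relation was not seen in the males, where Dnajc15 rested on 62 counts and single libraries on 1 to 14. There, Dnajc15 and Dnajc19 had r = 0.151 (permutation p = 0.65, adjusted 0.705) and rho = −0.0699 (permutation p = 0.835), Dnajc15 and Hsp90ab1 r = −0.121 (permutation p = 0.705) and rho = 0.0140 (permutation p = 0.974), and Dnajc19 and Hsp90ab1 r = 0.303 (permutation p = 0.35) and rho = 0.259 (permutation p = 0.415). In the females none of the 3 genes was related to library total, ribosomal protein share, proximal tubule markers or blood markers at an adjusted permutation p under 0.05 (12 relations). With all 12 animals the largest was that of Hsp90ab1 with the proximal tubule markers, at r = 0.475 (permutation p = 0.118, adjusted 0.928) and rho = 0.434 (permutation p = 0.16, adjusted 0.956). Leaving out the 2 animals with the most extreme level of the blood markers moved r with these markers from 0.036 to 0.714 for Dnajc19, from −0.13 to 0.513 for Dnajc15 and from 0.029 to −0.398 for Hsp90ab1. Leaving out those with the most extreme level of the proximal tubule markers moved r of Hsp90ab1 with them to 0.607. The part of either cell type in the relation among the 3 genes was not tested.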

How the data were processed

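Kidney RNA was sequenced as cDNA on a MinION. The authors used Guppy for basecalling, Porechop for trimming, Filtlong for filtering and Minimap2 for alignment to mouse RefSeq, and deposited estimated counts per mouse transcript, not scaled to library size. The submitters' processing notes also name Salmon, with no role given. Hamster reads that differ from the mouse transcript may be lost, and reads of near-identical genes or copies may be split. The labels name a PCR-cDNA kit and the methods a direct cDNA kit with the same catalogue numbers.

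The transcript with the highest total stood for each gene, because a read may be counted on several transcripts. It was chosen in each experiment on its own, so male and female values of a gene can be those of different transcripts. Among the genes for which it differed were Hspd1, Tcp1, Cct2, Bag6, Hsph1, Dnajb1, Dnajc4, Dnajc5 and Ahsa2. CPM was its count over the library total of such transcripts. Counts were rounded and tested with edgeR 4.0.16 (quasi-likelihood, R 4.3.3, TMM, Benjamini-Hochberg over all genes tested), 1 model per experiment with no covariate. Genes were tested if counted in 4 or more of 12 male or 6 or more of 12 female libraries. Standard errors were the log2 fold change divided by the square root of F. Alternatives were sums over transcripts, DESeq2 1.42.0 or its size factors, no filter, a filter of 8 or 12 of 12 libraries, the replicate number as a block, and leaving out each library. The fits were tested on simulated data.

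The members, lists and tests were chosen with earlier results of these data known. Genes were named if among the 20 members with the highest mean CPM in an experiment, if targets of HSF1 or of ER stress, or, with an unadjusted p under 0.05, up to 5 members and 2 partner genes in each direction per comparison. Other genes and fold changes were named after their values had been seen. Replicates are separate animals.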

Additional observations from a re-analysis of the deposited data

Results flagged for a closer look

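In 125 groups of 4 or 6 values, 4 libraries lay far from the rest of their group by Dixon's test, which flags about 1 in 20 groups by chance. Dnajc4 had 50.2 CPM in SP12wk replicate 3 and 0 in the other 3 libraries, which is a single read. Pfdn5 had 543 CPM in SP28wk replicate 3, against 332 to 365 CPM in the others. The mitochondrial members summed to 3153 CPM in SAL replicate 6, against 3850 to 4019 CPM in the other 5 SAL libraries. Cct7 had 138 CPM in PRL replicate 5, the PRL library with the fewest reads, against 68.1 to 90.9 CPM in the others.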

How the results depend on the processing

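The count of 0 members past the threshold was the same under all 108 alternatives, 18 for each of the 6 comparisons. With the replicate number as a block, 0 members passed in each comparison, and 1, 2, 0, 2, 0 and 3 members had an unadjusted p under 0.05, in the order of the report. The block raised the count of all genes called for PRL against SAL from 0 to 52, none of them members, and the absence of a filter raised it to 92. Over the fits that left out 1 library, between 0 and 44 genes were called there (44 without PRL replicate 4, 27 without SAL replicate 6 and 26 without PRL replicate 3), and between 8 and 56 for SP28wk against LP (56 without LP replicate 4 and 30 without SP28wk replicate 1), against 11 with all libraries. Adding all transcripts left 0 genes called in each comparison of the males and 1 for PRL against SAL. DESeq2 called 0, 2, 2, 0 and 3 genes in the males and 0 in the females, and the stricter filter 0, 2, 5, 0, 7 and 0. The cause was not tested. Same-numbered animals of different groups had deviations from their group means that correlated at −0.145 to 0.236 (males) and −0.282 to 0.333 (females). The median was −0.015 in the males, against −0.0033 for pairs of unlike number, and 0.109 in the females, against 0.0019. Of the libraries, 5 of 12 male and 3 of 12 female ones correlated best with one of their own number. The numbers were not taken to pair animals, but whether they do was not tested.

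Of 561 alternative log2 fold changes of named genes, 11 had the other sign, all for PRL against SAL and the farthest from 0 was Hspa5 at 0.102. With all transcripts added Cct5 was at −0.058. Without 1 library, Hsp90b1 ran from −0.073 to 0.12, Dnaja1 from −0.010 to 0.14, Hspd1 from −0.069 to 0.014, Cct5 from −0.044 to 0.094, Hspa5 from −0.33 to 0.10 and Hspa8 from −0.066 to 0.099. Dnajc15 stayed between −0.61 and −0.41 and Hspb8 between 1.64 and 2.59, with adjusted p values over all alternatives of 0.470 to 0.99986 and 0.507 to 0.99986. Hsp90ab1 ran from 0.17 without PRL replicate 6 to 0.42 without SAL replicate 6. For SP12wk against LP, Cct5 ran from −3.18 (without SP12wk replicate 4) to −1.36, and for LP with SP28wk against SP12wk from 1.27 to 3.10.

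In the males, single reads decide most values, and changes under 2-fold could not be seen for nearly all members. Spread between animals exceeded counting error (chi-square per degree of freedom 1.89 to 9.45 in the males and 2.13 to 10.1 in the females). Pairs with SAL replicate 6 had 6.16 to 10.1, and the other SAL pairs 2.13 to 5.03.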
